A study of Caenorhabditis elegans with 16 samples.

Results

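The comparison set RPB-6 occupancy in the seam cells of L4 larvae against that in the hypodermis of L4 larvae, and ranked the protein-coding genes of *C. elegans* by the difference. It used 8 of the 16 samples of the series, which are 2 replicates each of *srf-3i1* L4 *dam:rpb-6*, *srf-3i1* L4 *dam:NLS-GFP*, *dpy-7syn1* L4 *dam:rpb-6* and *dpy-7syn1* L4 *dam:NLS-GFP*. The 8 corresponding L2 samples served to see whether a difference was also present at L2. They also enter the estimate of spread behind each SE and p-value. In Targeted DamID (TaDa), the Dam methylase of *E. coli* is fused to a polymerase subunit, here RPB-6, and marks the GATC sites the polymerase comes near. Methylated DNA is then recovered from whole animals without isolating cells. *dam:NLS-GFP*, driven by the same promoter at the same stage, stands for accessible chromatin, and the deposited score of each GATC fragment is log2(*dam:rpb-6/dam:NLS-GFP*). *srf-3i1*, an enhancer from the first intron of *srf-3a* placed before a minimal *pes-10* promoter, drove the fusions in seam cells. *dpy-7syn1*, a *dpy-7* promoter with 2 altered GATA sites, drove them in the hypodermis. All strains carried single-copy transgenes with the *unc-54* 3′ end, were raised on bacteria without Dam or Dcm methylase, and were collected as whole larvae 48 h after seeding for L4 and 24 h for L2. Each transgene was studied in a single line, and DNA methylated before the L4 stage may still be present in cells that have not divided since.

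The seam cells are lateral epidermal cells that divide asymmetrically in a stem cell-like manner at each larval stage. Most of their anterior daughters fuse with hyp7, the multinucleate hypodermis that covers most of the body, whereas the posterior daughters keep the seam fate. GATA factors (ELT-1, EGL-18, ELT-6) and Wnt signalling maintain that fate. In late L4, the seam cells stop dividing, fuse with each other and build the adult cuticle ridges called alae, while seam and hypodermis together replace the larval cuticle, an outer matrix made chiefly of collagens.

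Occupancy of a gene was the mean score of the GATC fragments it overlaps, weighted by the overlapped length, and is given throughout on the log2 scale, on which 0 means as much methylation with RPB-6 as with the control fusion. Of 19985 annotated protein-coding genes, 19983 had at least 1 fragment and were ranked, with a median of 7 fragments per gene. Replicate 1 of the seam cells was read against control 2 and replicate 2 against control 1, because the deposited profile of replicate 1 against control 1 behaved as a ratio of the controls, with r = 0.996 across fragments with control 2 over control 1. With both seam replicates read against the control of the same number, 23 of the 109 protein-coding genes whose differences are reported here changed sign. This setting includes that profile, and its 2 seam profiles correlated with r = -0.393 across genes. The hypodermal replicates were read against the control of the same number. The values used are ratios without read counts, so sequencing depth cannot be stated, and 2 replicates a group limit the precision. Between 14.8% and 44.6% of fragment scores in the 4 profiles were 0. The ratios do not show whether an exact 0 is equal methylation or a fragment without reads. Across genes, the replicates correlated with r = 0.716 in seam cells and r = 0.772 in hypodermis, and profiles of different cell types with r = 0.657 to 0.724, so that 1 pair of profiles from different cell types was more alike than the seam replicates were. Libraries of seam cells and of hypodermis come from whole animals, and fewer cells with active polymerase on a gene cannot be told apart from less polymerase per cell.

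Most genes differed little in occupancy between the cell types, and a small number stood far apart. The difference, seam cells minus hypodermis, had a median of 0.01 and lay within 0.5 of 0 for 89.3% of genes. It exceeded 1 for 256 genes and was under -1 for 237 genes, and of these 240 and 202 had replicates that did not overlap between the cell types. Over all genes, both seam replicates were above both hypodermal replicates for 3960 genes (19.8%), and both hypodermal replicates were above both seam replicates for 2562 genes (12.8%). This split depended on the zero point, since profiles centred on their medians gave 2644 genes higher in seam cells and 3678 higher in hypodermis. With fragment scores of 0 left out, the counts were 2677 and 2526, so the seam excess was small. No gene passed an adjusted p of 0.05 in limma with Benjamini-Hochberg adjustment over all 19983 genes, the smallest being 0.134. At an unadjusted p under 0.05 in limma, 513 genes (2.57%) were higher in seam cells and 450 genes (2.25%) were higher in hypodermis. Without hypodermal replicate 1 these counts were 782 and 201, and without hypodermal replicate 2 they were 254 and 769. With 2 replicates a group no exact permutation test can pass 0.05, so the genes below are described by their values in each replicate.

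**Figure D1:**
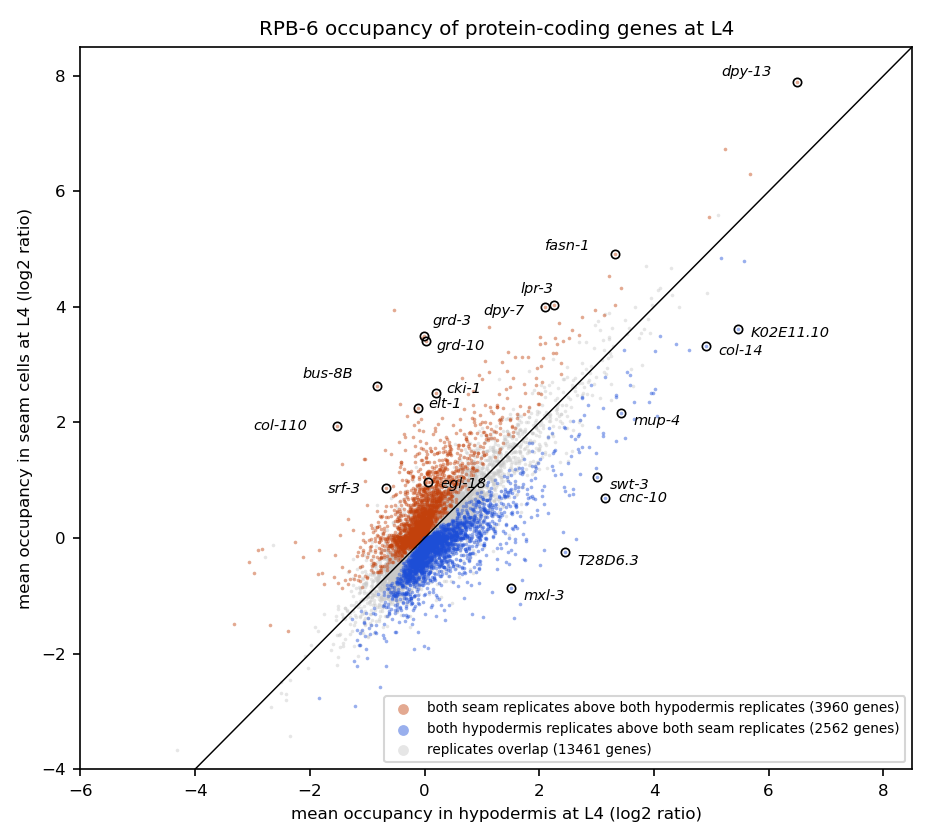
Mean RPB-6 occupancy of 19983 protein-coding genes in seam cells (vertical axis) against hypodermis (horizontal axis) at L4, both as log2(dam:rpb-6/dam:NLS-GFP) averaged over 2 replicates; the line marks equal values. Genes whose seam replicates both exceed the hypodermal ones (3960) lie above the line and those of the opposite kind (2562) below it, with grd-3, bus-8B and col-110 far above and T28D6.3 and mxl-3 far below.

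Over all genes the difference ran from -2.95 to 4.49. Among genes with at least 5 fragments and replicates without overlap, the largest differences in favour of seam cells were at *grd-3* and *grd-13*. These are neighbours of the groundhog family of secreted proteins related to Hedgehog, and *grd-10* beside them was of the same size. *grd-13*, *grd-3* and *grd-10* lie in this order on the plus strand of chromosome IV, at IV:3438312-3439507, IV:3439655-3440453 and IV:3441055-3441841 (WBcel235), and share no GATC fragment. *grd-3* had an occupancy of 3.81 and 3.19 in the seam replicates, against -0.01 and 0 in the hypodermal replicates. *grd-13* had 3.93 and 2.99 in seam cells, against 0 and -0.09 in hypodermis. *grd-10*, which has only 3 fragments, had 3.60 and 3.21 in seam cells, against -0.01 and 0.05 in hypodermis. All 3 genes were thus strongly occupied in both seam replicates and at or near 0 in both hypodermal ones. A hypodermal mean was exactly 0 for *grd-3* and for *grd-13*, so these genes have no value with fragment scores of 0 left out. Whether these zeros mean equal methylation or no reads cannot be told. The differences were 3.50 ± 0.41 for *grd-3*, 3.50 ± 0.40 for *grd-13* and 3.38 ± 0.35 for *grd-10* (SE from limma), with an adjusted p of 0.270 for each. The difference was also present in the 500 bp before the gene starts, at 3.35 for *grd-3* and 4.25 for *grd-10*, but only 1.20 for *grd-13*, the first of the row. The gap between *grd-13* and *grd-3* is 147 bp, so most of the 500 bp before *grd-3* lies inside *grd-13*. The sequence around the 3 starts is shown because these neighbours are near the top of the ranking. AGATA is marked in it because 2 such sites were altered to TGATA to make *dpy-7syn1* from the *dpy-7* promoter. Each run covers 250 bases before to 50 bases after the annotated start on the gene's strand, from the RefSeq genome of WBcel235, with AGATA and TGATA on either strand (TATCT and TATCA when reversed) in capitals.
grd-13, IV:3438062-3438361, plus strand: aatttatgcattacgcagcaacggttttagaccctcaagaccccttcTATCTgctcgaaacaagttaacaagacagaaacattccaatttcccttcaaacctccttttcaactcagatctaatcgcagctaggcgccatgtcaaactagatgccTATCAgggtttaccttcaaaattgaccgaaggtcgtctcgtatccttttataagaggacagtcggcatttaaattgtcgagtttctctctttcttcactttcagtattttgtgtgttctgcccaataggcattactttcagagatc
grd-3, IV:3439405-3439704, plus strand: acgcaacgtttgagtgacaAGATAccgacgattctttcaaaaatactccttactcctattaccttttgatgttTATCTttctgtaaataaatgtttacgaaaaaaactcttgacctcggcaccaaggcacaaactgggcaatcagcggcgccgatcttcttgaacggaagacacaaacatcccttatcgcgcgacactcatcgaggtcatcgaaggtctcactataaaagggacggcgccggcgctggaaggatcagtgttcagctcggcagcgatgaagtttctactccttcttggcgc
grd-10, IV:3440805-3441104, plus strand: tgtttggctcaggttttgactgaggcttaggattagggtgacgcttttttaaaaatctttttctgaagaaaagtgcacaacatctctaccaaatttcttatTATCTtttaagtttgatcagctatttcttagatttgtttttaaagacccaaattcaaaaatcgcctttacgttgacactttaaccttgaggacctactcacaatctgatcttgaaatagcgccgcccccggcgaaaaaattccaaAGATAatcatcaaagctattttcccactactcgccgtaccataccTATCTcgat
The window of *grd-13* holds AGATA 1 time and TGATA 1 time, that of *grd-3* AGATA 2 times and that of *grd-10* AGATA 3 times. The *grd-3* window begins inside *grd-13*, and both of its AGATA sites lie there. AGATA was found in 45.1% and TGATA in 53.9% of the 19983 windows of the same length, so a match is common.

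The other 13 groundhog genes did not follow the cluster. Of the 16 groundhog genes, both seam replicates were higher for 4 (25%, beside 19.8% of all genes). Both hypodermal replicates were higher for 1 (6.25%, beside 12.8% of all genes), and the median difference of the family was 0.03. *grd-16*, the remaining member without overlap, had a difference of only 0.03. The member higher in hypodermis was *grd-11*, at 0.21 and -0.05 in seam cells, against 0.64 and 0.50 in hypodermis. The related warthog genes were split, with 2 of 10 (20%) higher in each direction, beside 19.8% and 12.8% of all genes. *wrt-10* had 3.33 and 2.90 in seam cells, against 2.21 and 1.94 in hypodermis, and *wrt-3* had 1.29 and 1.24 in seam cells, against 0.50 and 0.05 in hypodermis. *wrt-4* went the other way, with 0.60 and 0.44 in seam cells, against 1.54 and 0.96 in hypodermis. The hypodermal marker *wrt-8* had a hypodermal replicate at 1.99 and the other at 0.45, and its seam replicates, at -0.13 and 0.55, overlapped them. Among 31 ground-like genes, both seam replicates were higher for 8 (25.8%) and both hypodermal replicates for 4 (12.9%), near the 19.8% and 12.8% of all genes. Within this family *grl-2* had a difference of 0.92 and *grl-21* of -1.79. Of the 26 patched and patched-related genes, which encode relatives of the Hedgehog receptor, 1 (3.85%) was higher in seam cells and 5 (19.2%) in hypodermis. The shares over all genes were 19.8% and 12.8%. *ptr-4* was the member higher in seam cells, with 2.97 and 2.57 in seam cells, against 2.03 and 1.85 in hypodermis. *ptr-2* had the lowest difference of the family, -1.08, and its seam values of 1.22 and 1.12 were below both hypodermal values.

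Beyond the groundhog cluster, the 15 genes with the largest difference in favour of seam cells included a second high point at *bus-8*, on chromosome X. *bus-8B*, annotated at X:5493332-5496050, encodes a predicted glycosyltransferase needed for the worm surface. It had 2.65 and 2.62 in the seam replicates, against -0.70 and -0.94 in the hypodermal replicates. Its difference of 3.45 ± 0.24 (SE) had the smallest SE of the 15, and an adjusted p in limma of 0.134, the lowest of all genes, as had *bus-2*. *Y43D4A.5* and *rml-3* shared this value. *bus-8A* lies on the same stretch, and all 3 of its fragments also belong to *bus-8B*. Other glycosylation genes of the surface pointed the same way. *bus-4* had 1.82 and 1.51 in seam cells, against -0.15 and -0.72 in hypodermis. *bus-2* had 1.13 and 0.99 in seam cells, against 0.0025 and -0.02 in hypodermis, the difference being 1.07 ± 0.08. *srf-3*, a nucleotide sugar transporter whose intron supplied the seam enhancer, had 1.27 and 0.44 in seam cells, against -1.01 and -0.34 in hypodermis. That intron lies within the gene and is also in the transgene of the seam strains. Any part of the transgene copy in the *srf-3* values was not tested. Of the 6 measured of 7 listed surface glycosylation genes, both seam replicates were higher for 4 and both hypodermal ones for none, with a median difference of 0.67. The list names *bus-8*, which the annotation splits into *bus-8A* and *bus-8B*, so *bus-8* is not among the 6. By comparison, both seam replicates were higher for 19.8% of all genes and both hypodermal ones for 12.8%, and the median over all genes was 0.01.

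Most of the seam fate regulators were higher in seam cells. Both seam replicates exceeded both hypodermal ones for 7 of 10 listed regulators of seam fate and division (beside 19.8% of all genes), and the reverse held for none (beside 12.8% of all genes). All 10 differences were above 0, with a median of 0.71 beside 0.01 over all genes, and 6 had an unadjusted p under 0.05 in limma (beside 2.57% of all genes). *elt-1*, the GATA factor that specifies epidermis, had 2.40 and 2.12 in seam cells, against -0.0017 and -0.21 in hypodermis. *elt-6* had 1.93 and 1.09 in seam cells, against 0.24 and -0.01 in hypodermis, and its neighbour *egl-18* had 1.11 and 0.82 in seam cells, against 0.20 and -0.10 in hypodermis. The lower-level members were *nhr-73* with a difference of 0.77, the Hairy-related *lin-22* with 0.76, the Runx partner *bro-1* with 0.65 and the engrailed homologue *ceh-16* with 0.43. The Runx gene *rnt-1* did not separate the cell types, at -0.18 and 0.07 in seam cells, against -0.11 and -0.17 in hypodermis. The markers of the hypodermis separated less well, as 1 of 4 was higher in seam cells (*dpy-7*, below), 1 in hypodermis and 2 overlapped. *osm-7* had 0.98 and -0.07 in seam cells, against 1.53 and 1.23 in hypodermis, whereas *wrt-8* and *elt-3* overlapped. *elt-3*, a GATA factor of the hypodermis, had 1.52 and 0.72 in seam cells, against 1.11 and 0.32 in hypodermis. *nhr-25*, which both cell types use, had 2.05 and 1.08 in seam cells, against 1.43 and 1.20 in hypodermis.

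The remaining genes of the 15 highest in seam cells belonged to several classes. *col-110* and *col-172* encode cuticle collagens. *col-110* had 1.62 and 2.25 in seam cells, against -1.29 and -1.76 in hypodermis, and *col-172* had 1.75 and 0.98 in seam cells, against -1.05 and -1.07 in hypodermis. *asp-4*, an aspartyl protease, had 1.81 and 0.76 in seam cells, against -1.17 and -1.71 in hypodermis. *ham-1*, known for its part in asymmetric neuroblast divisions, had 2.72 and 1.68 in seam cells, against -0.06 and -0.28 in hypodermis. The nuclear hormone receptor gene *nhr-265* had 2.29 and 1.92 in seam cells, against -0.18 and -0.42 in hypodermis. *T27C5.12*, annotated as a sulfotransferase family gene, had a difference of 2.12, and *M03E7.2* and *F01F1.14* had 2.40 and 2.14. Part of the fragments is shared with an overlapping gene at *col-110* (*nspg-10*), *M03E7.2* (*memb-2*), *F01F1.14* (*hpo-10*) and *asp-4* (*R12H7.4*). The same holds for *bus-8B*, which overlaps *T23F2.2* as well as *bus-8A*. In seam cells 13 of the 15 genes had a mean above 1, whereas in hypodermis all 15 had a mean under 0.5. The next gene in the ranking, *F47B8.14*, had 3.48 and 2.05 in seam cells, against 0.37 and 0.94 in hypodermis.

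The exceptions to this level were 2 mitochondrial genes. WBGene00010963 had -0.92 and -0.31 in seam cells, against -1.80 and -4.15 in hypodermis, and WBGene00010964 had -0.01 and -0.11 in seam cells, against -0.99 and -3.53 in hypodermis. RPB-6 belongs to nuclear RNA polymerases, and mitochondrial DNA is transcribed by another enzyme. Both seam replicates were above both hypodermal ones for 8 of the 10 mitochondrial genes, whose median difference was 2.40. Their medians were -0.45 and -0.01 in the seam replicates, against -0.96 and -4.15 in the hypodermal replicates, so that hypodermal replicate 2 stood lowest. Without that replicate the differences were 1.18 for WBGene00010963 and 0.93 for WBGene00010964, against 2.36 and 2.20 with it.

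**Figure D2:**
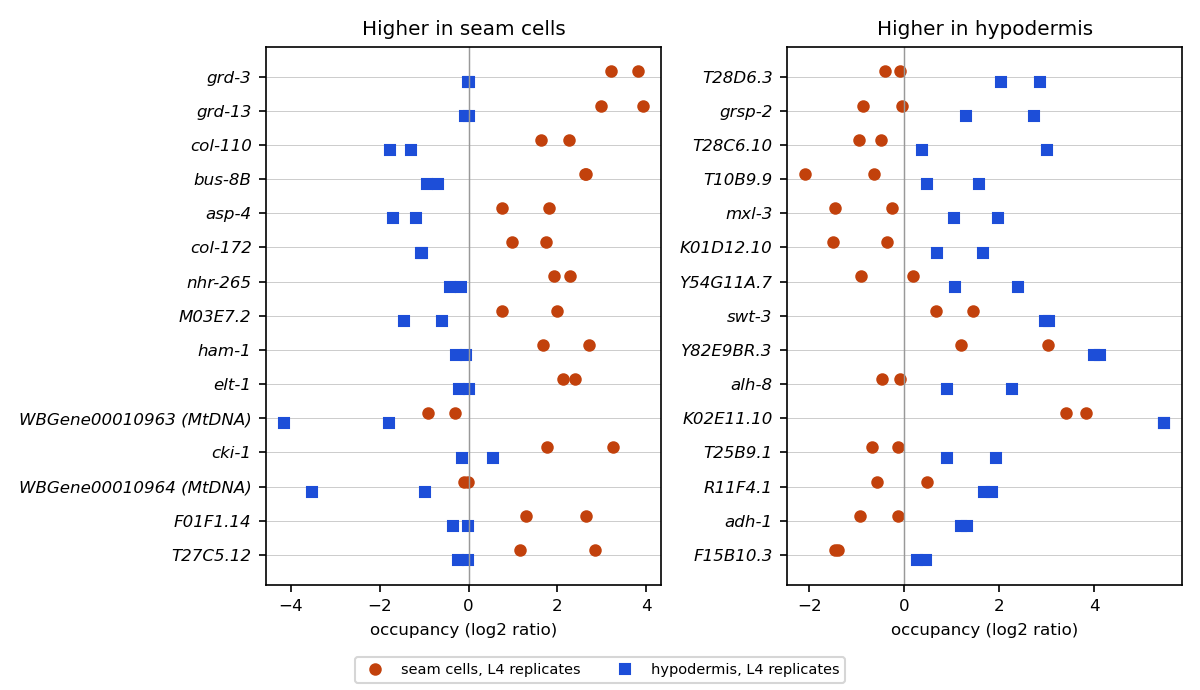
Occupancy in each L4 replicate (circles for seam cells, squares for hypodermis, horizontal axis in log2 ratio) for the 15 genes with the largest difference in favour of seam cells (left) and of hypodermis (right). Only genes with at least 5 fragments and replicates without overlap were eligible. In the left panel the hypodermal values sit near or below 0, and in the right panel most seam values do, with K02E11.10, Y82E9BR.3 and swt-3 above 0 in all 4 replicates.

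Among genes with at least 5 fragments and no overlap, the 15 largest differences on the hypodermal side were smaller, between -2.70 and -1.79. Several were at genes for enzymes and transporters. *T28D6.3* had -0.10 and -0.40 in seam cells, against 2.87 and 2.03 in hypodermis. *grsp-2*, coding for a glycine-rich protein, had -0.04 and -0.88 in seam cells, against 2.74 and 1.30 in hypodermis. *T28C6.10*, annotated as a transposase, overlaps *grsp-2* and had -0.49 and -0.95 in seam cells, against 3.01 and 0.37 in hypodermis. *mxl-3*, a transcription factor of the Mad/Max-like family, had -0.26 and -1.46 in seam cells, against 1.98 and 1.04 in hypodermis. *swt-3*, of the SWEET sugar transporter family, had the difference with the smallest SE, -1.95 ± 0.25 (SE, adjusted p = 0.326 in limma). Its values were 1.44 and 0.68 in seam cells, against 2.96 and 3.05 in hypodermis. *adh-1*, an alcohol dehydrogenase, had -0.12 and -0.94 in seam cells, against 1.19 and 1.33 in hypodermis. *alh-8*, an aldehyde dehydrogenase, had -0.47 and -0.09 in seam cells, against 2.27 and 0.90 in hypodermis. *R11F4.1*, a putative glycerol kinase, had 0.48 and -0.57 in seam cells, against 1.85 and 1.68 in hypodermis. *T25B9.1*, annotated as an aminotransferase, had a difference of -1.83. Fragments are shared with an overlapping gene at *T28D6.3* (*tba-7*), *adh-1* (*sodh-2*), *alh-8* (*F13D12.8*), *Y54G11A.7* (*ctl-2*), *Y82E9BR.3* (*lelo-2*) and *T25B9.1* (*T25B9.3*).

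*K02E11.10* and *Y82E9BR.3* were occupied in both cell types and more so in hypodermis. *K02E11.10* had 3.83 and 3.41 in seam cells, against 5.47 in both hypodermal replicates. *Y82E9BR.3*, the ATP synthase subunit c gene, had 3.03 and 1.19 in seam cells, against 3.99 and 4.13 in hypodermis. The others were *T10B9.9* (-2.39), *K01D12.10* (-2.11), *Y54G11A.7* (-2.10) and *F15B10.3* (-1.79), with seam means of -1.36, -0.94, -0.37 and -1.42. In seam cells, 12 of the 15 genes had a mean under 0.5, and in hypodermis 14 had a mean above 1. The next gene in this direction, *uda-1*, had seam values of -0.32 and -1.24, both below its hypodermal values, and a difference of -1.73.

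The start of *swt-3* and that of *col-14*, the collagen with the highest hypodermal mean among those named below as higher in hypodermis, are shown for the hypodermal side, with the same capitals.
swt-3, IV:10780634-10780933, minus strand: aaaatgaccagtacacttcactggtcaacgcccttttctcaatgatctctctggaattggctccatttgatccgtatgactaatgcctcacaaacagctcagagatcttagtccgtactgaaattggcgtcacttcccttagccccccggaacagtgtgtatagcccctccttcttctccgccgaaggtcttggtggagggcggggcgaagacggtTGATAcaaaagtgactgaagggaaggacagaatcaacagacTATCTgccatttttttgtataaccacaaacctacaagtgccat
col-14, IV:7753158-7753457, plus strand: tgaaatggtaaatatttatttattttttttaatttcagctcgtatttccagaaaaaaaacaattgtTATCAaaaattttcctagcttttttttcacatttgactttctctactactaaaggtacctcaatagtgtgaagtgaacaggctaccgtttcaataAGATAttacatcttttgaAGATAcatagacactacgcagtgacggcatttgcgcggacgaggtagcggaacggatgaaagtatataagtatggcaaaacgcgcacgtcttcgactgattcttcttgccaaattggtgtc
The window of *swt-3* holds AGATA 1 time and TGATA 1 time, and that of *col-14* AGATA 2 times and TGATA 1 time. Of the 15 genes highest in seam cells, 11 (73.3%) had AGATA and 7 (46.7%) had TGATA in this window. Of the 15 highest in hypodermis, 9 (60%) had AGATA and 12 (80%) had TGATA. The shares over all genes were 45.1% and 53.9%, and no test was made of sets this small.

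Single fragments show where along the genome the differences lay. Of 269057 fragments, both seam replicates were higher by a mean of at least 1 at 10098 (3.75%) and both hypodermal replicates at 9653 (3.59%). Adjacent fragments of this kind formed 191 runs of at least 5 in favour of seam cells, with a median length of 1277 bp, and 159 in favour of hypodermis, with a median of 1030 bp. The run over *bus-8* spanned 11 fragments (X:5493649-5495925) with means of 3.18 and 3.21 in seam cells, against -0.71 and -0.90 in hypodermis. *bus-4* lay in a run of 11 fragments (IV:4688621-4692302) and *ham-1* in a run of 8 (IV:12542420-12545178) with a mean difference of 2.82. On the hypodermal side, a run of 7 fragments covered *col-14* and *C46A5.4* (IV:7753546-7755456, mean difference -1.95), and a run of 10 covered *F15B10.3* and *nstp-2* (IV:6602940-6605642, -1.60).

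**Figure D3:**
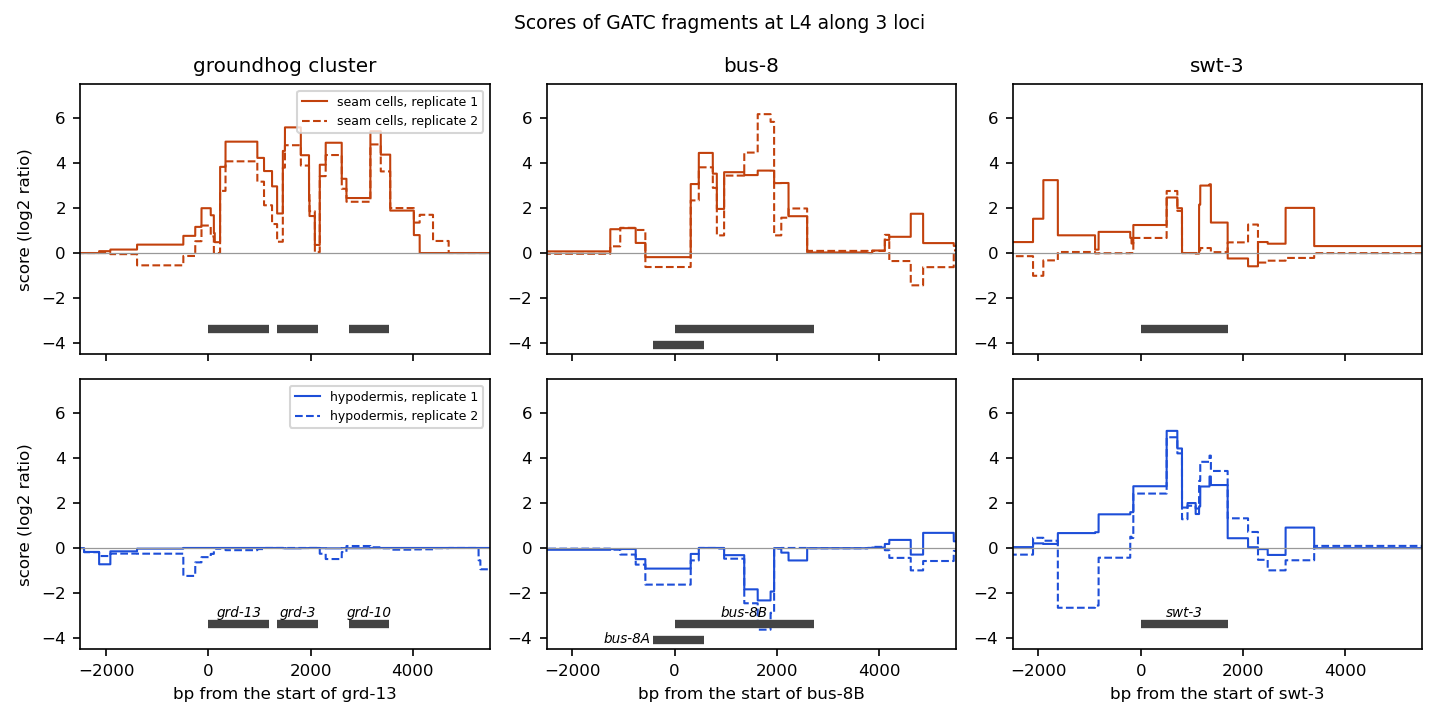
Scores of single GATC fragments (vertical axis, log2 ratio) in each L4 replicate along the groundhog cluster, bus-8 and swt-3, with seam cells in the upper row and hypodermis in the lower row; the horizontal axis is the distance in bp from the gene start in the direction of transcription, and grey bars mark genes. The groundhog genes and bus-8B are covered by high scores in both seam replicates and by scores near or below 0 in hypodermis, and swt-3 has its higher scores in hypodermis.

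Cuticle genes differed in both directions. Of 156 *col* genes, the large family of cuticle collagens, both hypodermal replicates were higher for 45 (against 12.8% of all genes) and both seam replicates for 21 (against 19.8%). At an unadjusted p under 0.05 in limma, 15 were higher in hypodermis (against 2.25% of all genes) and 5 in seam cells (against 2.57%). The median difference was -0.09. *col-14* had 3.07 and 3.57 in seam cells, against 5.21 and 4.61 in hypodermis. *col-180* had 1.74 and 0.47 in seam cells, against 2.86 and 2.57 in hypodermis. *col-145*, *col-122*, *col-165* and *col-80* had differences of -1.58, -1.51, -1.47 and -1.79. The collagens *col-110* and *col-172*, described above, were the extremes of the other direction, followed by *col-79* with a difference of 1.23 that changed sign when only fragments wholly inside the gene were used. *col-19*, a collagen of the adult hypodermis, did not separate the cell types, at 1.62 and 0.56 in seam cells, against 1.99 and 0.42 in hypodermis.

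The collagens of the annular furrows and of body shape gave other counts. Of 19 such genes, which are known from dumpy, roller and blister mutants, both seam replicates were higher for 8 (beside 19.8% of all genes) and both hypodermal replicates for 3 (beside 12.8% of all genes), with a median difference of 0.33. These were among the most occupied genes in both cell types, with means above 1 in both for 16 of the 19. *dpy-13* had 7.97 and 7.83 in seam cells, against 6.35 and 6.63 in hypodermis. *rol-8* had 6.97 and 6.48 in seam cells, against 5.78 and 4.70 in hypodermis. *dpy-3* had 3.29 and 3.11 in seam cells, against 1.81 and 2.79 in hypodermis, and *rol-6* had a difference of 0.99. *dpy-14* was the clearest exception, with 0.12 and 0.68 in seam cells, against 1.29 and 2.62 in hypodermis. With both seam replicates read against the control of the same number, *dpy-13*, *rol-8*, *dpy-3*, *rol-6* and *dpy-7* had negative differences. That setting uses the profile that behaved as a ratio of the controls. *dpy-7*, whose promoter was the source of *dpy-7syn1*, had 4.15 and 3.86 in seam cells, against 2.75 and 1.46 in hypodermis. Only 3 fragments cover it. In the 500 bp before *dpy-7*, sequence that may lie in the transgene of the hypodermal strains, the scores were 3.98 and 2.48 in seam cells, against 0.85 and -0.33 in hypodermis, and any part of the transgene copy in these values was not tested.

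The matrix that precedes the cuticle gave the highest median of all lists with more than 2 genes. Each new cuticle is laid down beneath a transient precuticle of lipocalins, leucine-rich repeat proteins, zona pellucida proteins and fibrillin. Both seam replicates were higher for 7 of 10 precuticle genes (beside 19.8% of all genes) and both hypodermal replicates for none (beside 12.8% of all genes), with a median difference of 1.01, and 7 of the 10 had means above 1 in both cell types. *lpr-3*, a lipocalin, had 4.13 and 3.94 in seam cells, against 2.89 and 1.63 in hypodermis. Its neighbour in name *lpr-4*, outside the list, had 3.48 and 2.61 in seam cells, against 1.56 and 1.15 in hypodermis. *sym-1* had 3.22 and 3.03 in seam cells, against 2.20 and 0.96 in hypodermis. *let-653*, a zona pellucida protein, had 2.56 and 2.03 in seam cells, against 1.75 and 0.77 in hypodermis. *egg-6* had 2.07 and 2.32 in seam cells, against 1.36 and 0.96 in hypodermis, and *let-4* and *fbn-1*, the fibrillin, had differences of 1.15 and 0.98. With both seam replicates read against the control of the same number, the differences of *lpr-3*, *lpr-4*, *sym-1*, *let-653* and *fbn-1* were negative. The profile that behaved as a ratio of the controls is part of that setting. The moulting regulators were mixed, 4 of 10 higher in seam cells and 2 in hypodermis (beside 19.8% and 12.8% of all genes). *nhr-23*, the nuclear receptor that drives moulting genes, had 3.19 and 2.56 in seam cells, against 1.44 and 0.79 in hypodermis, and *mlt-11* had 4.20 and 3.71 in seam cells, against 3.18 and 2.76 in hypodermis. Of 35 cuticlins and cuticlin-like genes, 8 (22.9%) were higher in seam cells and 6 (17.1%) in hypodermis, with a median of 0.03. Of 9 collagen enzymes, 1 (11.1%) was higher in each. The shares over all genes were again 19.8% and 12.8%.

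**Figure D4:**
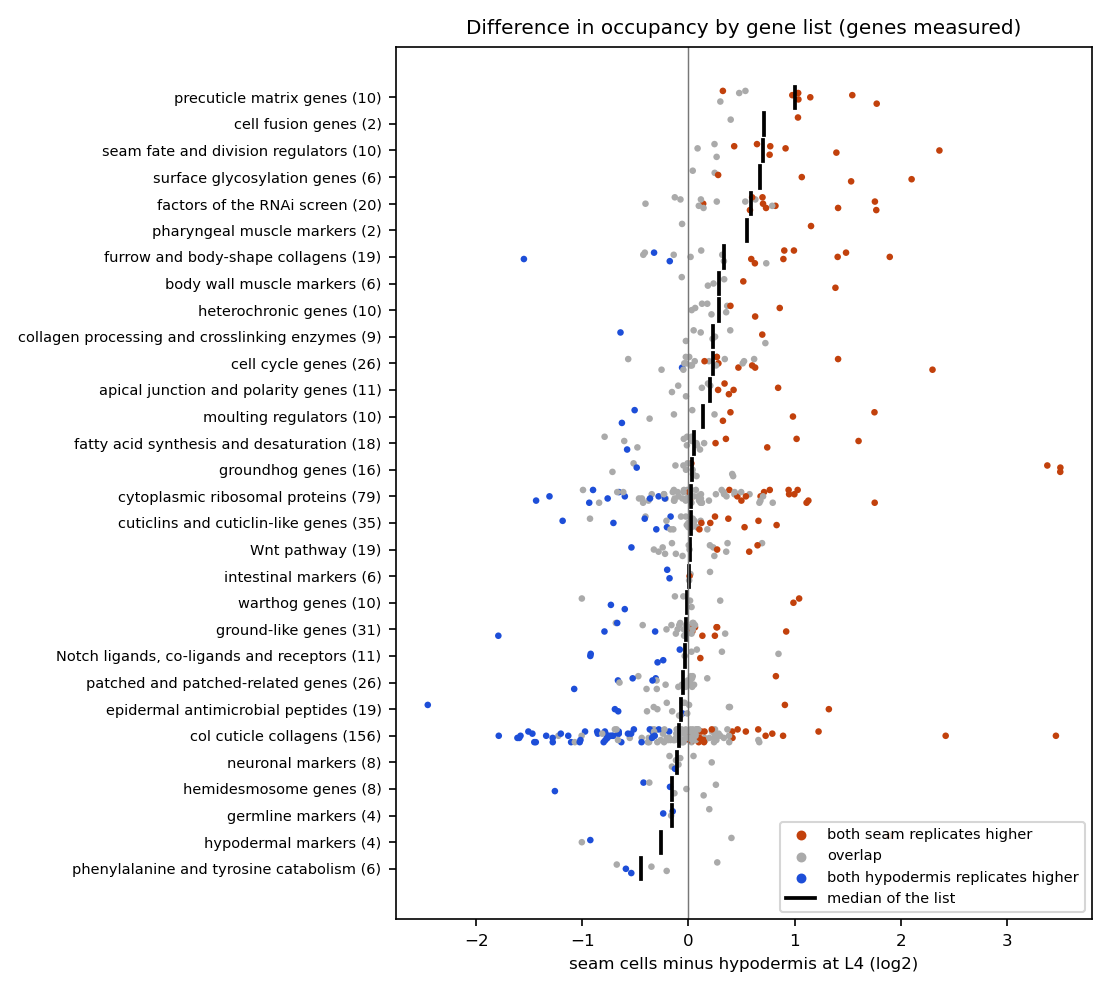
Difference in occupancy at L4, seam cells minus hypodermis (horizontal axis, log2), for each measured gene of 30 gene lists (rows, with the number of genes measured); points are genes, coloured by whether the replicates of the 2 cell types overlap, and black bars are list medians. Precuticle genes (median 1.01), seam regulators (0.71) and surface glycosylation genes (0.67) lie to the right of 0, and phenylalanine and tyrosine catabolism (-0.44) lies to the left.

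Some cell cycle and timing genes were higher in seam cells. Both seam replicates were higher for 8 of 26 cell cycle genes (beside 19.8% of all genes) and both hypodermal replicates for 1 (beside 12.8% of all genes), with a median of 0.23. *cki-1*, an inhibitor of cyclin-dependent kinases of the p27 type, led with 3.24 and 1.77 in seam cells, against 0.56 and -0.15 in hypodermis. The atypical E2F gene *efl-3* had 0.87 and 1.15 in seam cells, against -0.31 and -0.49 in hypodermis, the DP gene *dpl-1* a difference of 0.63 and *cdk-4* a difference of 0.60. The whole list includes both promoters and inhibitors of division. Among 10 heterochronic genes, which time larval events, all differences were above 0, as were those of 10630 of all 19983 genes. Both seam replicates were higher for 3 (30%, beside 19.8% of all genes) and both hypodermal replicates for none (beside 12.8%). *lin-29*, which directs the change from larval to adult fates, had 1.28 and 1.06 in seam cells, against 0.69 and 0.39 in hypodermis, and *lin-46* had 1.33 and 0.59 in seam cells, against 0.22 and -0.02 in hypodermis. The fusogen *aff-1*, which fuses the seam cells, had 0.91 and 0.94 in seam cells, against -0.02 and -0.19 in hypodermis. The other fusogen, *eff-1*, overlapped, at 1.36 and 0.89 in seam cells, against 1.12 and 0.33 in hypodermis.

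The transcription and chromatin factors that the study took into an RNAi screen were chosen with these samples in view, so their direction is not independent evidence. Both seam replicates were higher for 10 of 20 measured of 21 listed (beside 19.8% of all genes). Both hypodermal replicates were higher for none (beside 12.8% of all genes), and the median was 0.59. *nhr-270* had 1.53 and 1.67 in seam cells, against 0.01 and -0.35 in hypodermis, and *nhr-74* had 1.79 and 1.56 in seam cells, against -0.02 and -0.14 in hypodermis. *hda-1*, a histone deacetylase, had 1.01 and 1.05 in seam cells, against 0.68 and 0.18 in hypodermis. For the Wnt pathway, 3 of 19 genes (15.8%, beside 19.8% of all genes) were higher in seam cells. In hypodermis 1 (5.26%, beside 12.8% of all genes) was higher, and the median was 0.01. *pop-1*, the TCF factor at the end of the pathway, had a difference of 0.65, and the beta-catenin *wrm-1* had a difference of 0.57. Of 11 apical junction and polarity genes, 5 were higher in seam cells (beside 19.8% of all genes) and none in hypodermis (beside 12.8% of all genes). The largest difference was at *dlg-1* (0.84), with *hmr-1*, the E-cadherin, at 0.38. With both seam replicates read against the control of the same number, which brings in the profile that behaved as a ratio of the controls, *dlg-1* was at -0.10.

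Members of several lists were higher in hypodermis, as were 12.8% of all genes. The share of all genes higher in seam cells was 19.8%, against which the seam counts here are to be read. Of 8 measured hemidesmosome genes, whose products tie muscle through the hypodermis to the cuticle, 3 were higher in hypodermis and none in seam cells. *mup-4* had 2.73 and 1.61 in seam cells, against 3.72 and 3.14 in hypodermis, and *let-805* had a difference of -0.17. Of 6 genes of phenylalanine and tyrosine breakdown, 2 were higher in hypodermis and none in seam cells, with a median of -0.44. *tatn-1*, tyrosine aminotransferase, had 2.47 and 2.14 in seam cells, against 2.89 and 2.79 in hypodermis, and *hpd-1* had a difference of -0.59. For Notch, 5 of 11 genes were higher in hypodermis and 1 in seam cells, with a median of -0.04. The secreted co-ligand *dos-2* had 0.23 and 0.52 in seam cells, against 1.28 and 1.32 in hypodermis, the other hypodermal values being small apart from *osm-7*. Of 19 antimicrobial peptide genes of the epidermis, 4 were higher in hypodermis and 2 in seam cells, with a median of -0.07. Among them *cnc-10* had the lowest difference of any listed gene, with 0.20 and 1.20 in seam cells, against 3.16 and 3.15 in hypodermis over 3 fragments. *nlp-33* had 4.74 and 4.33 in seam cells, against 3.79 and 2.63 in hypodermis.

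Some lipid synthesis genes also differed. *fasn-1*, fatty acid synthase, was covered by 60 fragments and had 5.26 and 4.58 in seam cells, against 3.54 and 3.09 in hypodermis. *fat-6*, a stearoyl-CoA desaturase, had 1.26 and 1.95 in seam cells, against 0.89 and 0.28 in hypodermis, and *pod-2*, acetyl-CoA carboxylase, had a difference of 0.26. Of 18 genes of fatty acid synthesis and desaturation, 5 (27.8%) were higher in seam cells and 1 (5.56%) in hypodermis, and the median was 0.05. The shares over all genes were 19.8% and 12.8%. The 79 cytoplasmic ribosomal protein genes, which every cell uses, had a median of 0.03. Of these 16 (20.25%) were higher in seam cells and 10 (12.66%) in hypodermis, close to the shares over all genes. Their differences ran between -1.44 and 1.75, the highest being *rpl-29*.

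Most markers of other tissues were near or below the control level. The summed occupancy of 6 body wall muscle markers was -1.24 and -3.20 in the seam replicates, against -3.02 and -6.61 in the hypodermal replicates. At L4, 2 of the 6 were higher in seam cells (beside 19.8% of all genes). At L2 all 6 were (beside 4830 of all 19983 genes). *unc-54*, the muscle myosin whose 3′ end is in every transgene, had 0.37 and -0.10 in seam cells, against -0.81 and -1.68 in hypodermis. *myo-3* had -0.34 and -0.30 in seam cells, against -0.69 and -0.98 in hypodermis. *myo-2*, a myosin of pharyngeal muscle, had 0.35 and 0.10 in seam cells, against -0.66 and -1.20 in hypodermis, while *ceh-22* was below 0 in all 4 profiles. The 6 intestinal markers summed to -1.01 and -0.73 in seam cells, against -0.42 and -1.04 in hypodermis, the 4 germline markers to -0.74 and -1.14 in seam cells, against 0.01 and -1.18 in hypodermis. The 8 neuronal markers summed to -0.06 and 1.61 in seam cells, against 2.58 and -0.05 in hypodermis. The neuronal marker with the highest values was *snb-1*, at 0.90 and 2.21 in seam cells, against 1.98 and 0.69 in hypodermis. The parts of these tissues in the differences above were not tested. Of the other transgene parts, *rpb-6* itself had -0.03 and 0 in seam cells, against -0.20 and 1.34 in hypodermis, and *pes-10* had -0.0011 and 0.17 in seam cells, against 0.05 and -0.28 in hypodermis.

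MicroRNA genes were read with 500 bp on each side. A miRNA binds target mRNAs through its seed, bases 2 to 8 of the mature strand. Of 261 miRNA genes, both seam replicates were higher for 79 (30.3%) and both hypodermal replicates for 29 (11.1%), none passed an adjusted p of 0.05 in limma, and at an unadjusted p under 0.05 in limma 11 (4.21%) were higher in seam cells and 2 (0.766%) in hypodermis. The 4 largest differences in favour of seam cells were at *mir-45*, *mir-42*, *mir-43* and *mir-44*, all on chromosome II. *mir-42* to *mir-44* lie within II:11889811-11890118 on the plus strand and their windows share 2 fragments, so they count as 1 measurement. *mir-45* is 8983 bp away at II:11880944-11881039 on the minus strand and shares no fragment with *mir-44*. The mature sequences of both arms, from RefSeq on WBcel235, are shown with seeds in capitals, because *mir-44* and *mir-45* share theirs.
mir-42 arm a: gUGGGUGUuugcuuuuucggugaag
mir-42 arm b: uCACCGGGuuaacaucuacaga
mir-43 arm a: gACAUCAAgaaacuagugauuaug
mir-43 arm b: uAUCACAGuuuacuugcugucgc
mir-44 arm a: cUGGAUGUgcucguuggucaua
mir-44 arm b: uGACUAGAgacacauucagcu
mir-45 arm a: cUGGAUGUgcucguuagucaua
mir-45 arm b: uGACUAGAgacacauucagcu
The b arms of *mir-44* and *mir-45* are the same sequence, and their a arms have the seed UGGAUGU in common. *mir-45* had 3.02 and 2.25 in seam cells, against 0.84 and -0.97 in hypodermis. *mir-42* had 2.51 and 2.28 in seam cells, against 0.65 and -0.63 in hypodermis. Both clusters were thus well above the control in seam cells, while the hypodermal replicates fell on either side of it. The differences were 2.70 ± 0.66 for *mir-45* and 2.39 ± 0.49 for *mir-42* (SE, adjusted p = 0.403 and 0.342 in limma). *mir-47*, another miRNA gene that the study names, overlapped, at 0.78 and 0.71 in seam cells, against 2.05 and 0.36 in hypodermis. The window of *mir-45* touches the coding gene *top-2*, which had a difference of 1.08.

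The miRNAs *mir-48*, *mir-241* and *mir-84*, which act with the heterochronic genes, share the seed GAGGUAG.
mir-48 arm a: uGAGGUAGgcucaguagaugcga
mir-241 arm a: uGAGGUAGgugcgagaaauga
mir-84 arm a: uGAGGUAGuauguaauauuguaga
*mir-48* had 4.32 and 3.31 in seam cells, against 2.77 and 1.74 in hypodermis, a difference of 1.56 ± 0.50 (SE). *mir-241*, next to it on chromosome V, did not separate the cell types, at 2.86 and 2.52 in seam cells, against 3.59 and 1.42 in hypodermis, and *mir-84* had 0.22 and 0.46 in seam cells, against 0.10 and -0.31 in hypodermis. In favour of hypodermis the largest values were at *mir-80*, with 0.0004 and -1.52 in seam cells, against 1.93 and 0.49 in hypodermis, and at *mir-253*, with -1.53 and -3.37 in seam cells, against -0.79 and -0.71 in hypodermis. *mir-253* lies inside the coding gene *F44E7.5*, which had a difference of -1.25. *mir-235* followed but overlapped, at 2.64 and 0.67 in seam cells, against 2.59 and 2.55 in hypodermis.

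The L2 samples share no library with the L4 samples, although animals of a replicate came from 1 population. They show which differences were not limited to L4. Of the 15 genes highest in seam cells at L4, 10 had both seam replicates above both hypodermal ones at L2 as well (against 23.8% of genes with at least 5 fragments), and 14 had a difference above 0. Of the 15 highest in hypodermis, 11 had both hypodermal replicates higher at L2 (against 17.3%), and all 15 had a difference below 0. The seam replicates at L2 correlated with r = 0.309 across genes, the lowest of any group, and replicate 1 had r = 0.309 to 0.395 with all other profiles, which limits these counts. The groundhog cluster held at both stages, with differences of 3.50 at L4 and 2.60 at L2 for *grd-3*, and of 3.38 at L4 and 3.87 at L2 for *grd-10*. *swt-3* had differences of -1.95 at L4 and -2.50 at L2, and *adh-1* of -1.79 at L4 and -1.72 at L2.

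For other groups the L4 difference was above the L2 one, and seam L2 replicate 1, which stood apart, was the lower of the seam values for *dpy-13*, *egg-6*, *fbn-1* and *fasn-1*. The precuticle genes had a median difference of 1.01 at L4 and -0.12 at L2, and the furrow and body-shape collagens 0.33 at L4 and -0.54 at L2. *dpy-13* had differences of 1.41 at L4 and -0.65 at L2, *egg-6* of 1.03 at L4 and -0.89 at L2, and *fbn-1* of 0.98 at L4 and -0.70 at L2. *fasn-1* had 1.60 at L4 and -0.29 at L2. At L2 the replicates of the cell types did not overlap for *egg-6*, but did for *dpy-13*, *fbn-1* and *fasn-1*, for which a lower seam value at that stage is not shown. *bus-2* was at the control level in all 4 L2 profiles and had the smallest unadjusted interaction p of the genes named (1.46e-04, adjusted p = 0.589 in limma). *cki-1* had the opposite sign at L2, with 0.79 and 1.36 in seam cells, against 1.74 and 2.13 in hypodermis. That L2 difference was -0.86 ± 0.55 (SE, unadjusted p = 0.178 and adjusted p = 0.611 in limma). Its lower seam value was also that of seam L2 replicate 1. *mir-48* had a difference of 1.56 at L4 and, with overlapping replicates, -0.45 at L2. No protein-coding gene passed an adjusted p of 0.05 for the interaction of cell type and stage, and 1177 (5.89%) had an unadjusted p under 0.05 in limma. With both seam L4 replicates read against the control of the same number, the L4 difference of *fasn-1* was also negative, at -1.04. Again, that setting includes the profile that behaved as a ratio of the controls.

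**Figure D5:**
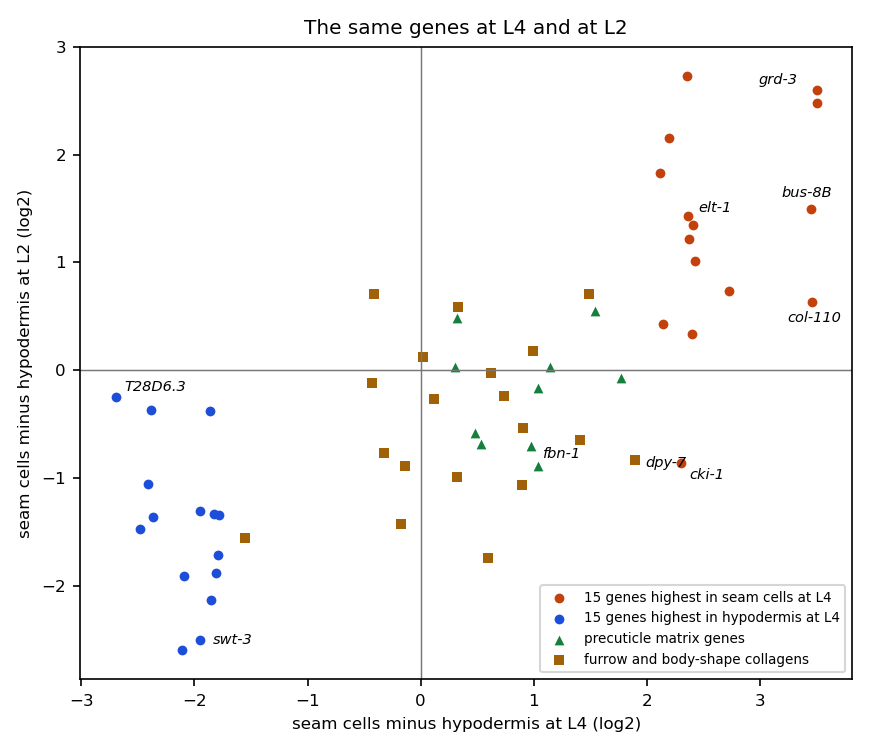
Difference in occupancy, seam cells minus hypodermis (log2), at L4 (horizontal axis) and at L2 (vertical axis) for the 15 genes highest in each cell type at L4, the 10 precuticle genes and the 19 furrow and body-shape collagens. All 15 hypodermal genes lie below 0 at both stages, 14 of the 15 seam genes lie above 0 at both, cki-1 lies below 0 at L2, and the precuticle genes spread about 0 at L2.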

How the data were processed

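Per the methods, single-end reads were aligned by the authors to WBcel235 using Bowtie2 2.3.4, handled in SAMtools 1.9 and scored with damidseq_pipeline, which includes its own normalisation. The deposited values used here are log2 ratios of *dam:rpb-6* to *dam:NLS-GFP* per GATC fragment, and they hold no depth, so counting error cannot be given. The authors' averaged profiles and their gene lists (mean occupancy, fragment number, FDR) were left out.

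Occupancy was calculated in Python 3.11.15 (numpy 2.4.6, pandas 2.3.3) over Ensembl release 115 genes, after checking that all 269057 fragments end at GATC sites of the RefSeq WBcel235 genome. limma 3.58.1 (R 4.3.3) was fitted to all genes with a mean for each of the 4 groups over 8 profiles, which leaves 4 residual degrees of freedom, and was tested on simulated data. Per the methods, the 2 replicates of a strain were biological, each begun from its own bleached plates, and p-values measure the spread between them.

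Genes are named if they were among the 15 most different in either direction (at least 5 fragments, replicates without overlap), stand out in 1 of 30 lists, mark either cell type in the study, or lie in a transgene. miRNA genes are *mir-42*, *mir-43*, *mir-44*, *mir-47* and the 3 at either extreme. *mir-48*, *mir-84*, *mir-241*, *lpr-4*, *bus-8A*, genes that overlap or host a named one, the next gene in each ranking and the fragment runs were added after their values were seen. Members and lists were chosen with earlier results of these data known. Alternatives covered profiles and controls, weighting, filters, scaling, the model, the miRNA window, a replicate block and each L4 replicate left out.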

Additional observations from a re-analysis of the deposited data

Results flagged for a closer look

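The cell type difference of *cki-1* ran in opposite directions at the 2 stages, with every replicate of each stage in line. At L4 the seam replicates had 3.24 and 1.77, against 0.56 and -0.15 in hypodermis. At L2 they had 0.79 and 1.36, against 1.74 and 2.13 in hypodermis. The L2 difference alone was -0.86 ± 0.55 (SE), with an unadjusted p of 0.178 and an adjusted p of 0.611 in limma. The lower seam value at L2 came from replicate 1, which stood apart from the other profiles. The L4 difference minus the L2 difference was 3.16 ± 0.78 (SE), with an unadjusted p of 0.00893 and an adjusted p of 0.778 in limma, so it does not pass over all genes. The gene lies at II:7811240-7812105 with 6 fragments, inside a run of 18 neighbouring fragments (II:7806984-7812757) with a mean L4 difference of 2.07. Over the alternatives, the L4 difference lay between 0.72 and 3.04.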

How the results depend on the processing

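Differences of named genes kept their direction in all but 36 of 2031 combinations of a gene and an alternative. This share is no measure of robustness, because some alternatives cannot change a difference. These are the L4 groups fitted alone (109 combinations), the replicate block (121), a robust fit with a variance trend (109) and the filter for 5 fragments (99). Many of the genes were also named for large differences without overlap. With seam replicate 1 read against control 1 and replicate 2 against control 2, the sign turned for *dpy-7* (-0.17), *lpr-3* (-0.33), *lpr-4* (-0.073), *fasn-1* (-1.04), *sym-1* (-0.066), *rol-8* (-2.03), *dpy-13* (-2.57), *nlp-33* (-1.07), *col-79* (-0.073), *wrt-10* (-0.62), *let-653* (-0.24), *rol-6* (-0.79), *mlt-11* (-1.14), *fbn-1* (-0.62), *dpy-3* (-0.77), *dlg-1* (-0.10), *ptr-4* (-0.67), *lin-29* (-0.0097), *elt-3* (-0.36), *eff-1* (-0.27), *lin-42* (-0.12), *pod-2* (-0.26) and *nhr-25* (-0.79). This setting includes the profile of replicate 1 against control 1, which behaved as a ratio of the controls. In this setting 1 gene (*swt-3*) passed an adjusted p of 0.05 in limma and 154 genes were higher in seam cells at an unadjusted p. Fragments wholly within the gene gave -0.077 for *col-79*, seam replicate 2 against control 2 gave -0.051 for *rnt-1*, and a window of 250 bp gave -0.016 for *mir-241*.

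Averaging each replicate over both controls, which the replicates then share, gave 104 genes past an adjusted p of 0.05, 1196 higher in seam cells and 1912 in hypodermis at an unadjusted p, and 5600 without overlap higher in hypodermis. Seam replicate 2 against control 2 gave 1286 at an unadjusted p and 5358 without overlap, both higher in hypodermis. Crossed hypodermal controls gave 696 higher in hypodermis at an unadjusted p. Quantile normalisation gave 1 gene past an adjusted p (*bus-8B*). Fragments with scores other than 0 in all 4 profiles left 22632 without overlap higher in seam cells and 21244 in hypodermis, against 44524 and 31014 with all fragments, and scores of 0 left out gave 2677 and 2526 genes, against 3960 and 2562. The causes were not tested, apart from the shared controls and smaller numbers of fragments that these settings bring with them.

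Leaving out each L4 replicate gave 254 to 782 genes higher in seam cells and 201 to 769 in hypodermis at an unadjusted p, and 4849 to 9612 and 3291 to 7854 without overlap, as fewer values must separate. For miRNA genes the ranges were 7 to 18 and 0 to 7 at an unadjusted p, and 88 to 142 and 38 to 88 without overlap, and for fragments 61946 to 109687 and 45361 to 80147. Differences ran on both sides of 0 with -0.24 to 0.73 for *nhr-25*, -0.037 to 0.21 for *rnt-1*, -0.90 to 0.67 for *col-19*, -0.0013 to 0.80 for *eff-1*, -1.36 to 0.19 for *rpb-6*, -0.93 to 2.08 for *lin-4*, -1.90 to 0.073 for *mir-235*, -1.30 to 0.39 for *mir-47* and -0.90 to 1.27 for *mir-241*. A lone replicate is assumed to vary like the other groups.

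Same-numbered replicates of the 2 cell types at L4 did not deviate together (r = 0.0419 across genes). Whether the numbers pair them cannot be told from this value, because the seam controls were crossed and the hypodermal ones were not. With the replicate number as a block, 0 genes passed an adjusted p, 510 were higher in seam cells and 470 in hypodermis at an unadjusted p, and of miRNA genes 14 and 4.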

Other observations

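Some of the longest stretches of higher seam occupancy at L4 touch genes outside the lists. A run of 13 fragments over *dmd-8*, a DM-domain transcription factor gene, covered 6565 bp (V:334310-340874) with a mean difference of 1.96. Runs over *ZK930.2* (II:11888444-11891957, 2.06) and *shn-1* (II:11388179-11390750, 1.58) covered 3514 bp and 2572 bp. The first of these spans the positions of *mir-42* to *mir-44*. On the hypodermal side, 13 adjacent fragments over *tln-1*, the talin gene, had a mean difference of -2.18 (I:1735413-1737524), and a second run of 7 fragments in the same gene had -1.55. These runs were picked by length after their values were seen and were not tested.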
